A study of Mus musculus with 27 samples.

Results

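The normal adult left ventricle was represented by 4 hearts of adult wild-type (WT) mice of the FVB strain, taken 7 days after a sham operation, that is, surgery without narrowing of the aorta. They were chosen by their group label alone, and make up 4 of the 16 small RNA libraries and 4 of the 27 libraries of the series. The other small RNA libraries came from 5 WT hearts after transverse aortic constriction (TAC, which loads the ventricle with pressure), 3 sham-operated hearts with caPI3Kalpha, a PI3K alpha that is permanently switched on, and 4 caPI3Kalpha hearts after TAC. All were FVB left ventricles collected at 7 days, with 1 library per numbered animal, and the promoter that drives caPI3Kalpha is not given in the sources used here. An unoperated heart was not analysed here. The 4 WT sham libraries held 3114229, 4158008, 6205989 and 4745609 counted miRNA reads in hearts 13, 15, 6 and 7. Levels are given as RPM, reads per 1000000 counted miRNA reads, so each is a share of the miRNA reads of that heart, and errors are standard deviations (SD) over the 4 hearts.

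A miRNA is cut from a hairpin precursor that has a 5p arm and a 3p arm; usually 1 arm is kept, bound by an Argonaute protein, and guides it to messenger RNAs. Pairing rests mainly on the seed, bases 2 to 8 of the miRNA, so miRNAs that share a seed are grouped as a family. In heart muscle, miR-1 and miR-133a are the classic muscle miRNAs, transcribed together, while miR-208a, miR-208b and miR-499 lie within myosin heavy chain genes. In bulk tissue, fewer cells of a type and less RNA per cell cannot be told apart.

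Of the 421 rows of the table, 243 matched a mature sequence of RefSeq (build GRCm38.p6), among them 23 of the 30 most abundant. These are the abundant ones whose seeds are shared with other abundant miRNAs, or which stand apart in the results below, with the seed in capitals and written 5′ to 3′.
miR-22: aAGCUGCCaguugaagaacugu
miR-30a: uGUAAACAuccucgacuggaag
miR-30e: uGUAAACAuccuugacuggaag
miR-30c: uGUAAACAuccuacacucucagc
miR-27b: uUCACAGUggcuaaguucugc
miR-27a: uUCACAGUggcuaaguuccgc
miR-26a: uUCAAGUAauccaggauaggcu
miR-26b: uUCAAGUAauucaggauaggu
miR-10a: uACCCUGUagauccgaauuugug
miR-10b: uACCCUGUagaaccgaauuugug
miR-99b: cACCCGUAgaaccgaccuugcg
miR-100: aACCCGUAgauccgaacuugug
miR-99a: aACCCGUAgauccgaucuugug
miR-181a: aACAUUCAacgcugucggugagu
let-7f: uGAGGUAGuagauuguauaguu
let-7a: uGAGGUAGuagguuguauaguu
let-7c: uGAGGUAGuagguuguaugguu
let-7d: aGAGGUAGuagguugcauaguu
miR-125b-5p: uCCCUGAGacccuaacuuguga
miR-125a-5p: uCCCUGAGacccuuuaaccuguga
miR-191: cAACGGAAucccaaaagcagcug
miR-208a-3p: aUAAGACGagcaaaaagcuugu
miR-208b: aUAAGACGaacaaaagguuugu
miR-499: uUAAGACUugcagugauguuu
miR-451: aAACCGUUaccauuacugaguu

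In RefSeq on GRCm38.p6, miR-22 lies at chr11:75463772-75463793 on the plus strand, miR-30a at chr1:23272274-23272295 on the plus strand, and miR-27b at chr13:63300760-63300780 on the plus strand. let-7d lies at chr13:48536078-48536099 on the minus strand, next to let-7a and 1 copy of let-7f. miR-208a-3p lies at chr14:54949072-54949093 and miR-208b at chr14:54975710-54975731, both on the minus strand. Several of these sequences are nearly the same. Counting bases from 1 at the 5′ end, miR-30a and miR-30e differ by C13U, miR-27b and miR-27a by U19C, miR-10a and miR-10b by U12A, miR-100 and miR-99a by A16U, and let-7f and let-7a by A12G. Among matched miRNAs with a mean over 100 RPM, 11 such pairs differed at 1 base. How the authors' mapping divided reads between such pairs is not given in the sources used here, so the levels within each of these pairs are uncertain.

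miR-22, a miRNA of striated muscle that mice need for the full growth response of the heart to stress, was the most abundant on average. It held 171773, 163239, 197549 and 204939 RPM in hearts 13, 15, 6 and 7, a mean of 184375 ± 20016 RPM (SD, n = 4), or 18.4% of counted reads. miR-143, known from smooth muscle, came next with 191827, 195046, 143773 and 132503 RPM in the same hearts, a mean of 165787 ± 32283 RPM. The order of these 2 was not the same in all hearts: miR-143 was first in hearts 13 and 15, and miR-22 in hearts 6 and 7. Their sum was steadier, 35.0% ± 1.27 of counted reads (SD, n = 4). miR-133a was next on average, with 74870, 86026, 83860 and 86116 RPM (mean 82718 ± 5335 RPM), and held rank 3 or rank 4 in every heart.

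The next positions were held by miR-27b (61330 ± 10441 RPM), by miR-378 (57977 ± 16873 RPM), which lies within the gene of the metabolic coactivator PGC-1 beta, and by miR-30a (52877 ± 1715 RPM). miR-126-5p, from the endothelial gene Egfl7, held 38413 ± 9293 RPM, miR-26a 38296 ± 8062 RPM, miR-30e 34773 ± 5960 RPM and miR-30d 25575 ± 1434 RPM (SD, n = 4 each). The 4 hearts put miR-30e in the same place, rank 9, while miR-378 ranged from rank 3 to rank 7 and miR-126-5p from rank 6 to rank 10. Further down, miR-100 ranged from rank 15 to rank 34, and miR-99a from rank 16 to rank 33. miR-1 stood at rank 21 on average, between rank 17 and rank 22 in single hearts.

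**Figure D1:**
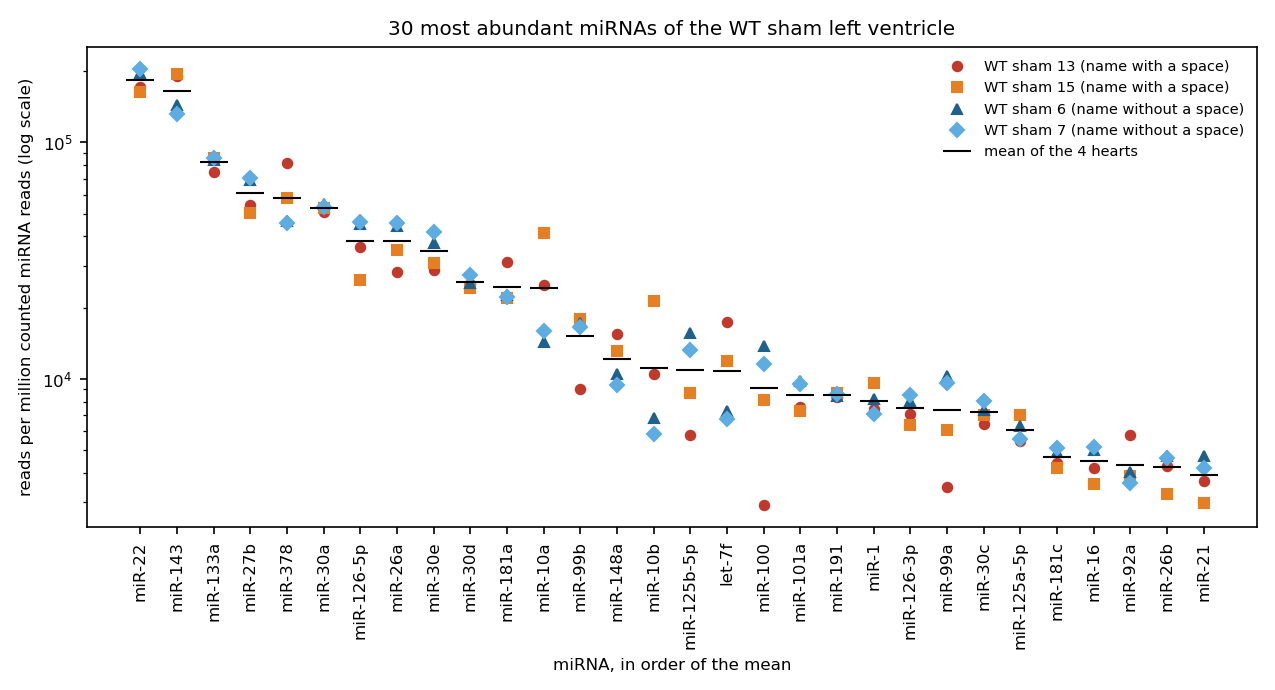
RPM (log axis) of the 30 most abundant miRNAs in each of the 4 WT sham hearts, in order of their mean, with the mean as a bar. Symbols for hearts 13 and 15 lie on one side of those for hearts 6 and 7 for miR-143, miR-27b and let-7f, while the 4 symbols of miR-191 and miR-30a almost coincide.

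The profile was steep. In each heart's own ranking, 4 or 5 miRNAs held 50% of counted reads, 23 held 90% in every heart, and between 67 and 72 held 99%. The 4 with the highest means held 49.3%, 49.5%, 49.5% and 49.4% in hearts 13, 15, 6 and 7, an SD of 0.079 percentage points, although each of the 4 alone had an SD of 5335 to 32283 RPM. That small SD belongs to this cut: it was 1.01 percentage points for the 3 highest and 1.61 for the 5 highest. The 10 highest held 74.2% ± 1.43, the 20 highest 87.7% ± 0.36 and the 30 highest 93.5% ± 0.38 (SD, n = 4). By level, 17 miRNAs had a mean of at least 10000 RPM and held 85.1%, 48 had at least 1000 RPM and held 97.6%, and 103 had at least 100 RPM and held 99.7%. The most abundant miRNA of each library held 19.7% ± 0.56 in WT sham (n = 4), against 20.2% ± 1.48 in WT TAC (n = 5), 21.8% ± 0.47 in caPI3Kalpha sham (n = 3) and 20.4% ± 2.21 in caPI3Kalpha TAC (n = 4). To reach 99% took 67 to 72 miRNAs in WT sham hearts, 74 to 77 miRNAs in hearts of WT TAC, 68 to 69 miRNAs with caPI3Kalpha after sham and 66 to 73 miRNAs with caPI3Kalpha after TAC. WT sham and WT TAC did not overlap in that number, which was not tested.

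Grouped by seed over the matched rows, the GUAAACA seed of miR-30a, miR-30e and miR-30c held 9.49% ± 0.79 of counted reads (SD, n = 4). With miR-30d and miR-30b added by name, the miR-30 family held 113517, 117057, 127796 and 133072 RPM in hearts 13, 15, 6 and 7, or 12.3% ± 0.91. Of it, 43.2% ± 2.3 was miR-30a, 28.2% ± 2.7 miR-30e, 20.8% ± 0.9 miR-30d and 5.87% ± 0.18 miR-30c (SD, n = 4), steps larger than the spread between hearts. The UCACAGU seed of miR-27b and miR-27a held 6.46% ± 1.11, the UCAAGUA seed of miR-26a and miR-26b 4.25% ± 0.84, and the ACAUUCA seed of the 4 miR-181 members 3.03% ± 0.47.

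The ACCCUGU seed of miR-10a and miR-10b, which lie in the Hox gene clusters, held 3.55%, 6.27%, 2.12% and 2.17% in hearts 13, 15, 6 and 7, and the ACCCGUA seed of miR-99a, miR-99b and miR-100 held 1.54%, 3.21%, 4.13% and 3.76%. Heart 15 was highest for the first and heart 13 lowest for the second. The let-7 family, whose members repress growth genes such as the Ras genes and Hmga2, has 9 rows with the seed GAGGUAG. It held 37531, 26616, 16949 and 16040 RPM in hearts 13, 15, 6 and 7, with hearts 13 and 15 above hearts 6 and 7. Within the family the largest shares varied little: let-7f made up 43.9% ± 1.8, let-7a 15.5% ± 1.2 and let-7c 13.8% ± 0.2 of let-7 reads (SD, n = 4). Some smaller shares varied more for their size, such as let-7d at 3.15% ± 0.52 (2.56% to 3.71%) and let-7b at 3.79% ± 0.45. The GAGGUAG seed has the largest number of members with reads among the 16 most abundant seeds of the matched rows, 9 of 9 rows, and held rank 8 of those seeds by share. That order leaves out rows with no matched sequence, miR-143, miR-133a, miR-378 and miR-126-5p among them.

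The striated muscle list had rows for miR-133a, miR-1, miR-499, miR-208a (both arms), miR-208b, miR-133b and miR-206, all with at least 1 heart above 0, and together held 85221, 98961, 96042 and 97732 RPM in hearts 13, 15, 6 and 7, or 9.45% ± 0.63 of counted reads. miR-133a made up 87.6% ± 0.5 of that and miR-1 8.5% ± 1.0. The ratio of miR-133a to miR-1 was 10.1, 8.98, 10.2 and 12.2 in hearts 13, 15, 6 and 7, although both are cut from shared transcripts. It compares reads and not molecules, since ligation favours some sequences. Of the miRNAs within myosin genes, miR-499, from Myh7b, had 1590, 1915, 2452 and 2788 RPM. miR-208a-3p, from Myh6, the main myosin gene of the adult mouse ventricle, had 823, 1007, 988 and 1202 RPM. miR-208b, from Myh7, the fetal and stress myosin gene, had 354, 272, 473 and 438 RPM. miR-208a-3p exceeded miR-208b in every heart, by 2.71 ± 0.71 times (range 2.09 to 3.69). miR-206, a skeletal muscle miRNA, had 2 reads in heart 6 and was listed at 0 in hearts 13, 15 and 7.

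Both marker miRNAs of heart muscle, miR-1 and miR-133a, were present in all 4 hearts, with 7066 to 9578 RPM and 74870 to 86116 RPM. miRNAs listed as markers of other cell types of the ventricle had reads as well, and whether these came from those cells was not tested. The smooth muscle list was almost all miR-143, 99.6% ± 0.1, with miR-145 at 742, 731, 585 and 663 RPM in hearts 13, 15, 6 and 7. miR-143 exceeded miR-145, made from the same transcript, by 243 ± 29.9 times in reads, which are not molecules (SD, n = 4; range 200 to 267). The 2 arms of miR-126, the endothelial marker, held 43294, 32566, 53028 and 54759 RPM, and heart 15 was lowest. The fibroblast-enriched list held 4058, 3493, 5574 and 5065 RPM, of which miR-21 made up 86.0% ± 3.6. The leukocyte list held 2011, 1850, 1852 and 1863 RPM and was led by miR-146a (649 ± 31.2 RPM), miR-146b (397 ± 31.6 RPM) and miR-150 (359 ± 121 RPM), with the myeloid miR-223 at 101 ± 8.4 RPM. The red blood cell list, miR-451 and miR-144, held 718, 99.3, 569 and 751 RPM, with heart 15 far below the others.

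Among lists for tissues other than heart, the neuron list held 190, 174, 143 and 145 RPM in hearts 13, 15, 6 and 7, of which miR-128 made up 62.7% ± 4.0, and miR-137 was listed at 0. The epithelium list held 196, 171, 230 and 218 RPM, of which miR-203 made up 93.1% ± 1.4, and miR-205 was at 0. The pancreas rows, miR-375 and miR-217, were at 0 in all 4 hearts. The gut and kidney list, miR-192, miR-215 and miR-194, stood higher, at 2846, 2732, 2854 and 3104 RPM, above the leukocyte list in every heart, and was led by miR-192 (2638 ± 167 RPM, rank 37). The table has no row for miR-122, miR-124 or the embryonic stem cell list. The imprinted cluster of chromosome 12, expressed from the maternal copy, had 50 rows, of which 44 had reads, and held 1642, 1538, 1591 and 1543 RPM, 68.3% ± 1.3 of it miR-127. Of the remaining families and clusters, miR-23/24/27, led by miR-27b, held 7.04% ± 1.20, the miR-15 and miR-16 family, led by miR-16, 0.612% ± 0.088, miR-17 to 92 and its copies, led by miR-92a, 0.592% ± 0.109, and miR-29, led by miR-29a, 0.404% ± 0.0996 (SD, n = 4 each).

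**Figure D2:**
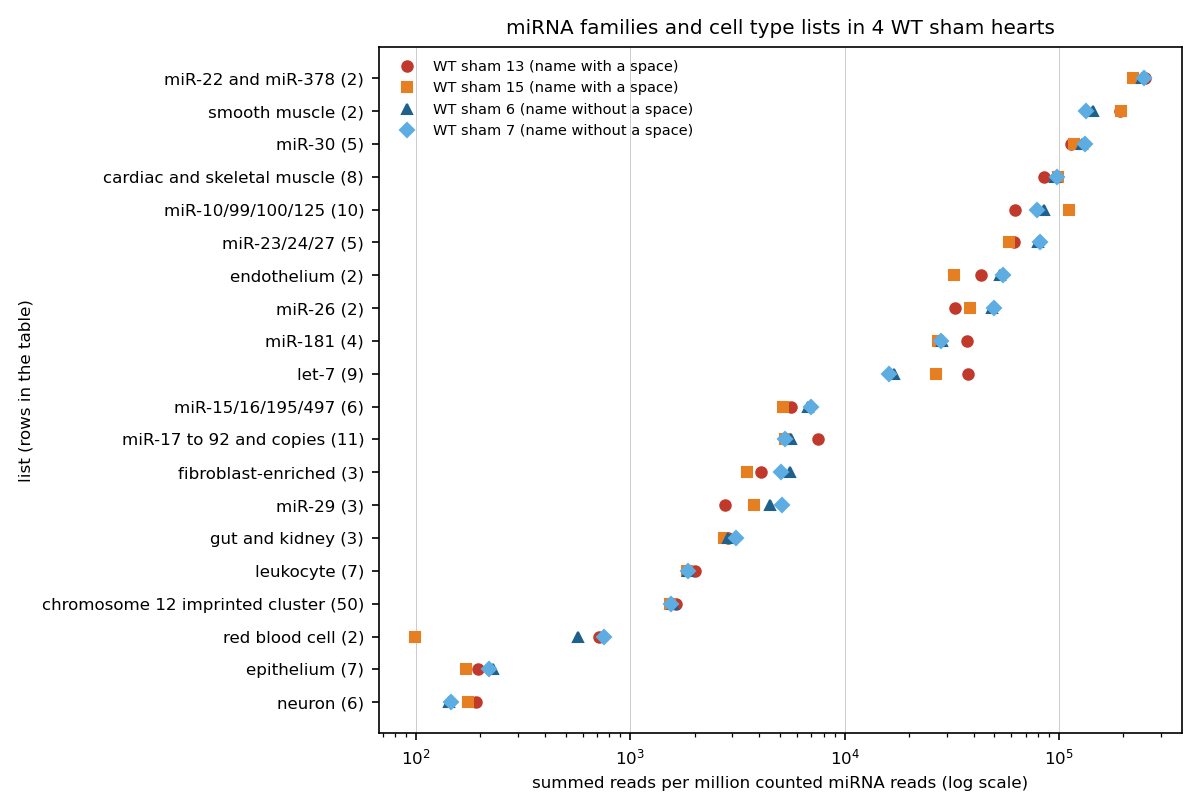
Summed RPM (log axis) of each list in the 4 WT sham hearts, with the number of rows of the list in brackets. Lists run from miR-22 and miR-378 at the top, 24.2% of counted reads, to the neuron list, and the low symbol in the red blood cell line is heart 15.

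miRNAs encoded next to each other differed widely in RPM. Ligation favours some sequences, so ratios between miRNAs compare reads and not molecules. In addition, miR-24, miR-92a and let-7c each have a second locus with the same mature sequence (on chromosomes 8, X and 15). Their reads cannot be assigned to 1 transcript. On chromosome 13 miR-27b exceeded miR-24 by 19.9 times (range 17.2 to 25.2 over the 4 hearts), and miR-27b exceeded miR-23b by 43.1 ± 6.71 times. miR-191 exceeded miR-425, its neighbour on chromosome 9, by 128 times (range 112 to 158). In the cluster on chromosome 14 that holds miR-17 to miR-92a, miR-92a had 4325 RPM and miR-18a 2.90 RPM. These ratios stayed on 1 side of 1 in all hearts. The pair of miR-99a and let-7c, neighbours on chromosome 16, did not: miR-99a over let-7c was 0.68 and 1.66 in hearts 13 and 15, against 4.41 and 4.24 in hearts 6 and 7. In the other 3 groups the same ratio ran from 0.74 to 1.31 in 6 libraries with a space in the name and from 2.16 to 3.67 in 6 without. The ratio of miR-99b to let-7e, of the cluster on chromosome 17, was likewise 35.3 and 92.1 in hearts 13 and 15, against 149 and 126 in hearts 6 and 7.

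Both arms were listed for 52 precursors, and 42 of these had at least 10 summed reads over the 4 hearts. With 0.5 reads added to each arm, the 5p arm was higher in 22 and the 3p arm in 20. The higher arm was the same in all 4 hearts for 35 pairs (19 with 5p, 16 with 3p) and was not for 7. Of these 7, miR-212 had equal reads of both arms in heart 13 and more 5p reads in the other 3 hearts. The median difference between arms was 9.66-fold, 23 pairs differed by more than 8-fold and 8 by less than 2-fold. miR-125a was the most lopsided of the 42, 2253-fold toward 5p, with 16978, 29260, 39240 and 26305 reads of 5p in hearts 13, 15, 6 and 7 beside 9, 13, 11 and 13 of 3p.

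For miR-126, which contributes both arms, the 5p arm exceeded the 3p arm by 5.13, 4.10, 5.59 and 5.44 times in hearts 13, 15, 6 and 7 (log2 2.33 ± 0.20). miR-208a was read mostly from its 3p arm, 19.8-fold, with 222, 261, 198 and 213 reads of 5p and 2564, 4186, 6134 and 5704 of 3p in hearts 13, 15, 6 and 7. The excess of 3p was smaller in hearts 13 and 15 than in hearts 6 and 7. miR-490 (202-fold) was read mostly from 3p, and miR-340 (32.9-fold), miR-142 (9.06-fold), a leukocyte miRNA, and miR-1843 (51.8-fold) from 5p. miR-335 (1.90-fold) and miR-423 (1.49-fold) leaned to 3p in every heart.

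The pairs without a steady higher arm were miR-151, miR-434, miR-212, miR-345, miR-409, miR-369 and miR-540. miR-151 had 8041, 13536, 19889 and 15706 reads of 5p and 12793, 12274, 9345 and 7218 of 3p in hearts 13, 15, 6 and 7, so that log2 of 5p over 3p was -0.67, 0.14, 1.09 and 1.12. In the other 3 groups it ran from -0.99 to 0.06 in libraries with a space in the name and from -0.06 to 0.88 in those without. miR-409 gave -1.10, -0.50, 1.29 and 0.90, and miR-434 gave -2.11, -1.57, -0.36 and 0.03. miR-409 and miR-434 lie within the imprinted cluster of chromosome 12, and their arms carry different seeds, shown in capitals.
miR-409-5p: aGGUUACCcgagcaacuuugcau
miR-409-3p: gAAUGUUGcucggugaaccccu
miR-434-5p: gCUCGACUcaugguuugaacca
miR-434-3p: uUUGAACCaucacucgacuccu

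miR-212 gave 0.00 in heart 13, where both arms had 52 reads, against 1.62, 2.35 and 2.40 in hearts 15, 6 and 7. miR-345 stayed near even in all hearts, at -0.52, 0.09, -0.27 and -0.06. miR-369 and miR-540 had at most 14 reads per arm and heart, and their ratios rest on counts too low to order the arms.

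**Figure D3:**
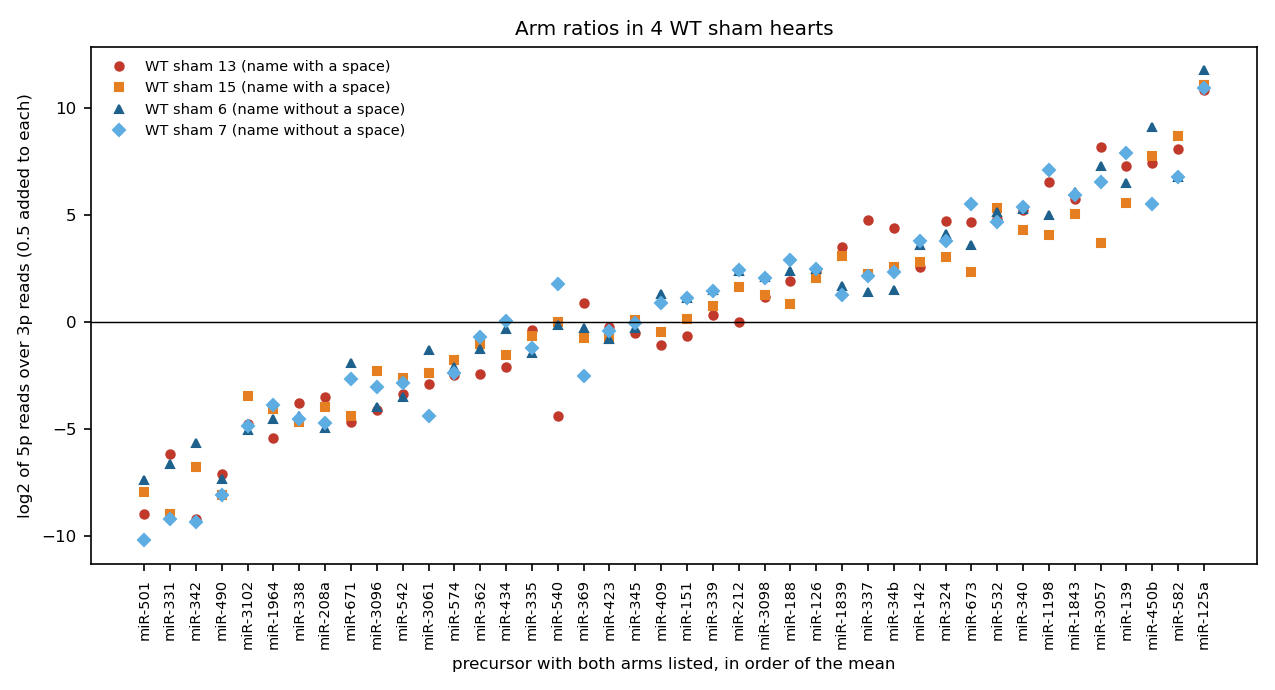
Log2 of 5p reads over 3p reads, with 0.5 added to each, for the 42 precursors with at least 10 summed reads, 1 symbol per WT sham heart. Points above 0 are pairs with more 5p reads, and the 7 pairs with symbols on both sides of 0, or on it, lie between miR-434 and miR-212.

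Of the 421 rows, 267 had reads in all 4 hearts, 91 in 1 to 3 hearts, and 63 were listed at 0 in all 4. Per heart, 297, 305, 326 and 312 miRNAs had reads in hearts 13, 15, 6 and 7, the fewest in heart 13, the library with the fewest counted reads. No value of 1 occurs among the 6736 values of the table, while 428 are 2 and 1619 are 0. A listed 0 may therefore stand for 1 read, and no limit is set on the level of a miRNA at 0. The 91 partly detected rows had at most 23 summed reads, with a median of 4. Of the 63 rows at 0, 8 were at 0 in all 16 libraries, among them miR-802, and 55 had reads elsewhere, 45 of them 10 or fewer over the 12 other libraries. miR-376a and miR-653 had the most, 41 reads each. Those of miR-376a were 30 in WT TAC, 6 in caPI3Kalpha sham and 5 in caPI3Kalpha TAC, and those of miR-653 were all in caPI3Kalpha TAC. Rows at 0 in a whole group numbered 63 in WT sham, against 42 in WT TAC, 65 in caPI3Kalpha sham and 51 in caPI3Kalpha TAC, with different numbers of libraries and depths in each. In the other direction, 8 rows had reads in WT sham alone.

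The spread between hearts includes that between separate library preparations and that between the forms of column name described below. Over 103 miRNAs with a mean over 100 RPM the median coefficient of variation (CV, the SD as a percent of the mean) was 17.7%, against 1.63% from counting alone, and over the 262 miRNAs kept by edgeR's filter on low counts it was 24.1% against 7.25%. By level, the median CV was 21.1% for the 17 miRNAs over 10000 RPM, 16.5% from 1000 to 10000 RPM, 17.1% from 100 to 1000 RPM, 20.6% from 10 to 100 RPM and 36.7% for the 75 miRNAs up to 10 RPM. The steadiest over 100 RPM were miR-191 (2.05%), miR-127 (3.07%), miR-30a (3.24%), miR-130a (3.66%), miR-204 (4.26%) and miR-125b-2-3p (4.66%). miR-191 had 8328, 8734, 8478 and 8617 RPM in hearts 13, 15, 6 and 7. In the other groups it averaged 13150 RPM in WT TAC, 7986 RPM in caPI3Kalpha sham and 14861 RPM in caPI3Kalpha TAC, and WT sham did not pass the test against those groups (log2 -0.31, SE 0.16).

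The most variable over 100 RPM were miR-10b (63.9%), miR-2145 (60.7%), miR-451 (55.9%), miR-98 (54.3%), let-7d (52.3%) and miR-100 (51.9%). Their patterns over the hearts were of more than 1 kind. miR-10b had 10516, 21367, 6821 and 5827 RPM and was highest in heart 15. miR-451, the red blood cell miRNA, had 644, 91.4, 490 and 648 RPM and was lowest in heart 15. miR-100 had 2924, 8145, 13780 and 11513 RPM and was lowest in heart 13. let-7d had 1285, 988, 434 and 466 RPM, and miR-98, of the same family, 395, 261, 138 and 128 RPM. miR-2145 had 792, 546, 186 and 280 RPM. For let-7d, miR-98, miR-2145 and miR-10b, hearts 13 and 15 lay above hearts 6 and 7, and for miR-100 they lay below.

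**Figure D4:**
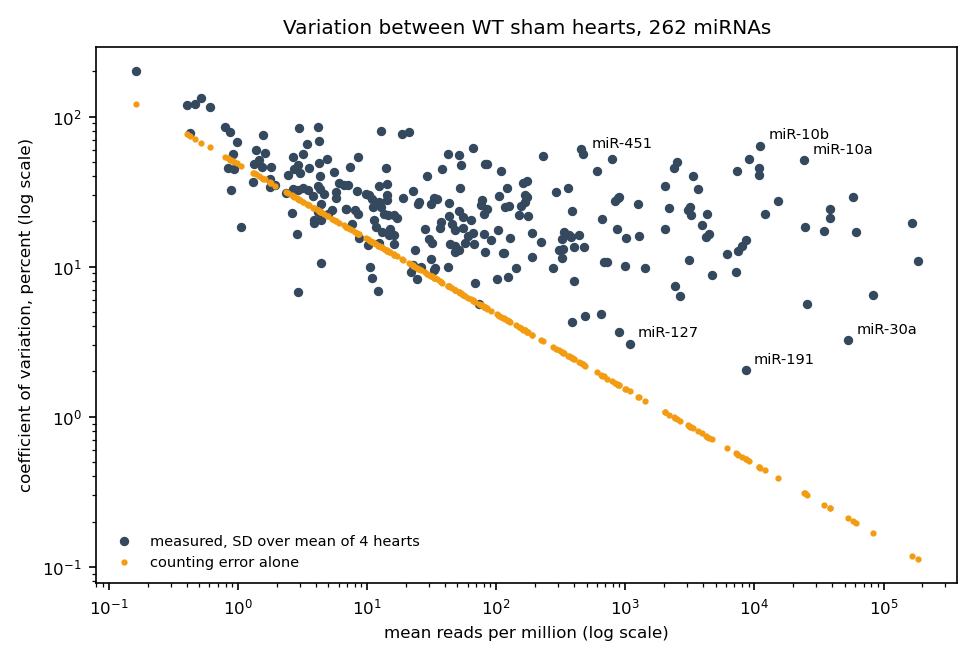
Coefficient of variation over the 4 WT sham hearts against mean RPM, both on log axes, for 262 miRNAs, with the value that counting error alone would give. Above 100 RPM almost all miRNAs lie far above the counting line, and the lowest measured values are those of miR-191, miR-127 and miR-30a.

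The columns of hearts 13 and 15 have a space in their names and those of hearts 6 and 7 do not. What the forms of name stand for is not given in the sources used here; libraries were pooled several to a sequencing lane per the labels, with no lane named. A difference between these pairs of hearts and one between libraries handled apart cannot be told apart. Between hearts 6 and 7 Spearman's rho over 262 miRNAs was 0.995 and 0 of 103 miRNAs over 100 RPM differed more than 2-fold. Between hearts 13 and 15 it was 0.986, with 3 beyond 2-fold. Across the forms of name rho ran from 0.978 to 0.983, with 5 to 15 beyond 2-fold. A chi-square test of the counts gave 402 for each degree of freedom for hearts 13 and 15 and 46.9 for hearts 6 and 7, beside 1006 to 1074 for pairs across. These values set the libraries against counting error only, and not against other sources of spread.

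With edgeR's quasi-likelihood test over all 16 libraries, 47 of 262 miRNAs (17.9%) passed an adjusted p of 0.05 between hearts 13 and 15 and hearts 6 and 7, 30 higher (11.5%) and 17 lower (6.49%) in hearts 13 and 15. RPM did not overlap between the pairs of hearts for all of the 47, and for 161 of all 262 (61.5%). The split depends on scaling: with the library of heart 13 as the reference of the TMM scaling 36 were higher and 8 lower, and with that of WT TAC 17 20 were higher and 57 lower. The median log2 of all miRNAs, 0.07 in the main fit, was 0.18 and -0.20 with these references. It was 0.04 with library totals in place of TMM. With DESeq2 30 were higher and 28 lower. Without heart 6, 7 or 13 the number that passed was 10, 15 and 14, and without heart 15 it was 50. Without the library of WT TAC 2 it was 74, 17 higher and 57 lower.

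The let-7 family stood on 1 side. All 9 of its 9 members were higher in hearts 13 and 15, beside 11.5% of all miRNAs tested, with a median log2 difference of 0.95, beside 0.07 over all. let-7d had 1285 and 988 RPM in hearts 13 and 15 and 434 and 466 RPM in hearts 6 and 7, a log2 difference of 1.36 (SE 0.15, edgeR adjusted p = 0.000247). let-7f, the most abundant member, had 17302 and 11838 RPM in hearts 13 and 15 and 7316 and 6737 RPM in hearts 6 and 7 (log2 1.07, SE 0.15, edgeR adjusted p = 0.0013). miR-98, a member by its seed, differed by 1.32 (SE 0.19). Several members differ from another at 1 base, as listed above for let-7f and let-7a, so the values of single members are uncertain. All 9 passed under each of the other scalings as well, with a median of 0.68 with WT TAC 17 as the reference and 1.05 with heart 13. Without heart 6, 7 or 13, 3, 6 and 8 of them passed, and all 9 stayed higher in direction.

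Among the miRNAs that passed the test, the largest rises in hearts 13 and 15 outside let-7 were miR-671-3p (log2 2.01, SE 0.47), miR-1247 (1.88, SE 0.43), miR-1947 (1.85, SE 0.49), miR-1839-5p (1.5, SE 0.25), miR-3057-5p (1.46, SE 0.42) and miR-151-3p (1.24, SE 0.24). miR-1247 and miR-1947 were below 10 RPM in every heart. miR-151-3p had 4108 and 2952 RPM in hearts 13 and 15, against 1506 and 1521 RPM in hearts 6 and 7, while its 5p partner, with 2582 and 3255 RPM in hearts 13 and 15, against 3205 and 3310 RPM in hearts 6 and 7, did not pass. The largest falls among those that passed were miR-1195 (-2.01, SE 0.64), miR-212-5p (-1.46, SE 0.25), miR-199a-5p (-1.06, SE 0.22), miR-450a (-1.05, SE 0.21), miR-99a (-1.01, SE 0.28), miR-125b-5p (-0.96, SE 0.26), miR-142-5p (-0.72, SE 0.23) and miR-136 (-0.70, SE 0.18). Of the 30 most abundant miRNAs 3 were higher (let-7f, miR-378 and miR-143) and 5 lower (miR-27b, miR-26a, miR-125b-5p, miR-99a and miR-16). Over all miRNAs tested 11.5% were higher and 6.49% lower, so the 3 higher ones are near the share over all.

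By list, 2 of 3 members of miR-29 (a median log2 of -0.59) and 2 of 5 of miR-23/24/27 (miR-27b and miR-27a, a list median of -0.39) were lower in hearts 13 and 15, beside 6.49% of all miRNAs. Of the 10 rows of the miR-10, miR-99, miR-100 and miR-125 group 2 were lower and 0 higher, with a median of 0.07. Of the 7 striated muscle miRNAs tested miR-208a-5p was higher (0.84, SE 0.18) and miR-499 lower (-0.54, SE 0.17), with a median of -0.04. The endothelium, miR-30, miR-181 and red blood cell lists had 0 members past the test (median log2 -0.40, -0.08, 0.19 and -0.91). The remaining lists had at most 1 member past the test in each direction.

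The same contrast in the 12 libraries of the other 3 groups, which share no heart with WT sham, gave 111 of 267 miRNAs (41.6%), 55 higher (20.6%) and 56 lower (21%). Of the 47 called in WT sham 43 were called in the same direction there, 91.5% of the WT sham calls and 38.7% of the calls of the other groups. The 4 that were not called there were miR-497, miR-674, miR-488 and miR-374. let-7d ran from 873 to 1066 RPM in the 6 libraries of other groups with a space in the name, against 299 to 470 RPM in the 6 without, and its log2 difference there was 1.27 (SE 0.09). The difference between the contrast in WT sham and in the other groups passed for 0 of 262 miRNAs with edgeR (11 at an unadjusted p under 0.05) and 0 with DESeq2 (3 unadjusted). Across the 188 tested miRNAs with a sequence the log2 difference had a Spearman's rho of 0.03 with mature length and 0.18 with GC share, as a description over miRNAs of the same libraries.

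**Figure D5:**
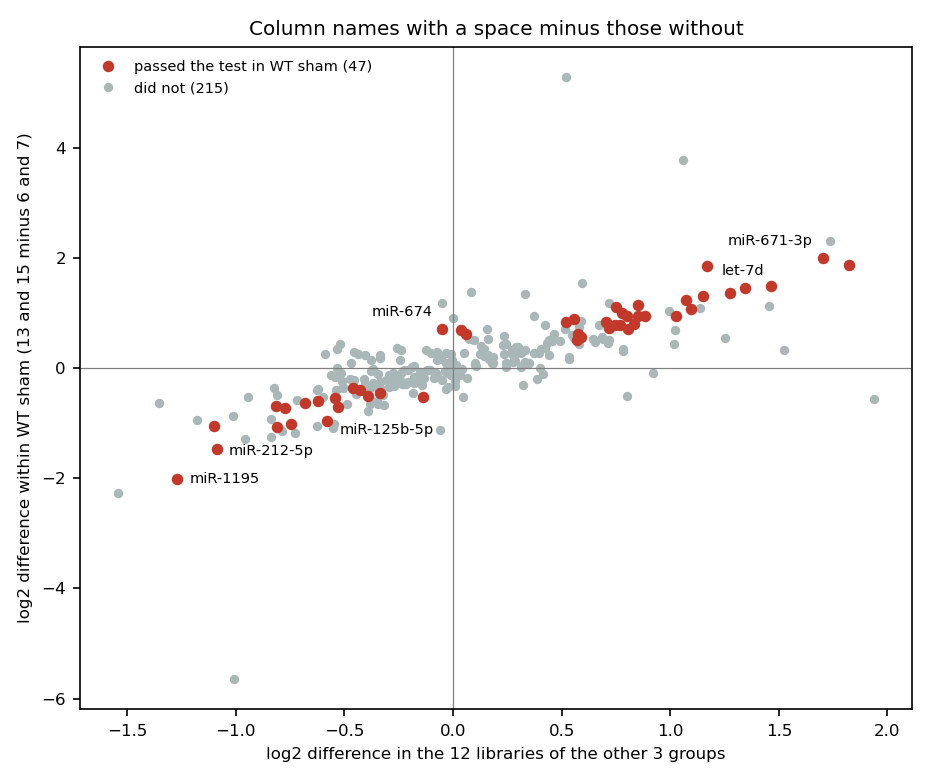
Log2 difference between libraries with and without a space in the column name within WT sham (hearts 13 and 15 minus hearts 6 and 7) against the same difference in the 12 libraries of the other 3 groups, for 262 miRNAs. Of the 47 red points, which passed the test in WT sham, all but miR-674 lie on the same side of 0 on both axes.

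Set against the mean of the other 3 groups, the WT sham profile differed for 12 of 262 miRNAs (4.58%) by edgeR's quasi-likelihood test, 3 higher (1.15%) and 9 lower (3.44%) in WT sham. The lower ones included miR-208b, miR-146b, which restrains inflammatory signalling, miR-21, which is known to rise in stressed hearts, miR-34c, and miR-127, miR-410, miR-411, miR-379 and miR-431 of the imprinted cluster. The 3 higher ones were miR-30d, miR-187 and miR-338-5p. The number of calls depended on the libraries used. Without any 1 of hearts 13, 15, 6 and 7 only 1 or 2 remained, miR-146b among them each time. miR-146b alone remained without WT TAC 1, 17, 19 or 20, caPI3Kalpha sham 5 or 8, or caPI3Kalpha TAC 8 or 11. Without caPI3Kalpha TAC 9 or 211, 2 and 7 passed, and without WT TAC 2 or caPI3Kalpha sham 14, 11 and 13. At an unadjusted p under 0.05 edgeR gave 56 in the main fit and 37 to 58 without 1 library. With a term for the form of column name 58 passed, 32 higher and 26 lower, and all 12 were among them. With library totals in place of TMM 0 were higher and 17 lower, with a median log2 of all miRNAs of -0.13, with the size factors of DESeq2's method (RLE) 1 and 8, and with heart 13 or WT TAC 17 as the TMM reference 1 and 14, and 1 and 6.

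miR-146b had 361, 393, 438 and 395 RPM in WT sham hearts 13, 15, 6 and 7, against 1581 to 2230 RPM in WT TAC, 380 to 558 RPM in caPI3Kalpha sham and 636 to 952 RPM in caPI3Kalpha TAC (log2 -1.06, SE 0.16, edgeR adjusted p = 0.00167). WT sham lay below both TAC groups and overlapped with caPI3Kalpha sham. miR-208b had 354, 272, 473 and 438 RPM in WT sham, against 1049 to 1785 RPM in WT TAC, 175 to 585 RPM in caPI3Kalpha sham and 1345 to 4076 RPM in caPI3Kalpha TAC (log2 -1.43, SE 0.35). miR-208a-3p did not pass, at 0.27 (SE 0.15). miR-21 had 3699, 2989, 4709 and 4198 RPM in WT sham, against 11480 to 23140 RPM in WT TAC, 3383 to 5230 RPM in caPI3Kalpha sham and 4149 to 6529 RPM in caPI3Kalpha TAC (log2 -0.76, SE 0.20). miR-127 had 1108, 1074, 1096 and 1033 RPM in WT sham, against 2250 to 3160 RPM in WT TAC, 907 to 1095 RPM in caPI3Kalpha sham and 1616 to 2803 RPM in caPI3Kalpha TAC.

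Of the 26 tested rows of the imprinted cluster 5 were lower and 0 higher, beside 3.44% of all miRNAs lower, with a median log2 of -0.42, beside 0.00 over all. Without heart 6, and without heart 7, 0 of them passed. miR-30d had 25070, 24154, 25527 and 27548 RPM in WT sham, against 20270 to 24880 RPM in WT TAC, 17471 to 25990 RPM in caPI3Kalpha sham and 19998 to 23468 RPM in caPI3Kalpha TAC (log2 0.37, SE 0.10), and overlapped with all 3 groups but caPI3Kalpha TAC. Of the 12, RPM did not overlap between WT sham and the other groups for miR-338-5p alone, at 2.74 to 3.21 RPM in WT sham and 0.98 to 2.20 RPM in the others (log2 0.90, SE 0.22). The WT sham values of miR-338-5p rest on 10 to 18 reads per heart. Their CV was 6.76%, against 28.2% from counting alone, so the narrow range is not read as a steady level. How many of all miRNAs tested did not overlap is not given here, so the share among the 12 cannot be judged against it. The muscle miRNAs miR-133a (0.31, SE 0.10, edgeR adjusted p = 0.0748), miR-1 (0.31, SE 0.17) and miR-499 (0.39, SE 0.19) did not pass, nor did miR-22 (0.10, SE 0.16) or miR-143 (0.17, SE 0.19).

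Against caPI3Kalpha sham, the other group without pressure load, 0 of 262 miRNAs passed with edgeR (0%; 4 at an unadjusted p under 0.05) and 0 with DESeq2 (4 unadjusted). All 30 of the most abundant miRNAs overlapped in RPM between WT sham and caPI3Kalpha sham, and their log2 differences ran from -0.38 to 0.29, with SEs from 0.12 to 0.46. The share that overlapped over all 262 is not given here, so the overlap is not read as a trait of abundant miRNAs. The smallest unadjusted p was that of miR-324-3p, at 0.64 to 2.40 RPM in WT sham and 2.49 to 3.55 RPM in caPI3Kalpha sham. With 4 hearts against 3, differences of the size of these SEs were not resolved.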

How the data were processed

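Small RNA was sequenced from left ventricles after adapter ligation and PCR, per the labels' protocols. The deposited values are raw read counts per miRNA of miRBase version 16, per the file headers, and 0 columns stayed unmatched to a sample. Per the submitters' processing notes, which give no roles, CASAVA 1.6, Bowtie and Partek 6.5 were used with mm9. Ligation favours some sequences, so RPM ranks reads and not molecules, and PCR reads are not independent molecules. RPM divides each count by the counted miRNA reads of its library. Comparisons used edgeR 4.0.16 (quasi-likelihood, TMM factors of 0.867 to 0.953 in WT sham, filterByExpr, Benjamini-Hochberg) in R 4.3.3, and DESeq2 1.42.0 as an alternative; the script was tested on simulated data. Arm ratios used a pseudocount of 0.5 reads. No limit is given for a count of 0, since the value 1 does not occur. Sequences are from RefSeq. The 23 lists and the members were chosen with earlier results of these data known. Named miRNAs are the 30 most abundant, up to 8 largest changes each way, leading list members, extreme CVs, the most abundant, most even or unsteady arm pairs, and heart miRNAs of interest. Others, such as those that passed against the other groups with overlap, were named after their values were seen. Alternatives were other scalings, filters, models, averages and pseudocounts, and leaving out each heart.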

Additional observations from a re-analysis of the deposited data

Results flagged for a closer look

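Each set of 4 WT sham values was examined for 1 heart far from the other 3, by the gap to its nearest neighbour as a share of the whole range. Of 156 sets 9 met this, 7 of them through heart 13. Chance alone is expected to give about 1 in 20, which is near the number found. The sets are not independent, since lists and their members were examined separately. miR-181a was 31212 RPM in heart 13, against 21956 to 22610 RPM in the other 3 hearts. miR-181b, of the same cluster, was 1246 RPM in heart 13, against 711 to 800 RPM. The summed miR-181 list was therefore 37261 RPM in heart 13, against 27248 to 28586 RPM. miR-99b was 9031 RPM in heart 13, against 16474 to 17871 RPM. The list of miR-17 to 92 and its copies was 7535 RPM in heart 13, against 5253 to 5610 RPM, most of it miR-92a. The leukocyte list was 2011 RPM in heart 13, against 1850 to 1863 RPM. The 4 most abundant miRNAs held 49.3% of counted reads in heart 13, against 49.4% to 49.5%, a gap of small size. The log2 ratio of 5p to 3p reads of miR-340 was 4.30 in heart 15, against 5.23 to 5.37. miR-206 was 0.322 RPM in heart 6, from 2 reads, against a listed 0 in the others. Heart 13 had the fewest counted reads, 3114229; the part of depth in these values was not tested.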

How the results depend on the processing

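For the forms of column name in WT sham, 47 miRNAs passed, against 133 in an additive model over all 16 libraries, 111 in the 12 libraries of the other groups, 77 with WT TAC 17 as the TMM reference, and 10 to 74 without 1 library. miR-674 turned to -0.049 in those 12 libraries; every other call kept its direction under each alternative, and 29 to 44 of the 47 calls were kept under those that leave out no library. For WT sham against the other 3 groups, 12 passed, against 20 with DESeq2, 2 with no filter, 58 with a term for the form of name, 7 with WT TAC 17 as the TMM reference, and 1 to 13 without 1 library. The TMM references and leaving out libraries of other groups were added after seeing the data. Against caPI3Kalpha sham 0 passed under every alternative. The share of the top 10 was 71.4% with miR-22 left out of ranking and denominator. With TMM-adjusted library sizes the values of the top 10 and top 20 became 80.9% and 95.6%. All WT sham TMM factors lay below 1 (0.867 to 0.953), which raises every level within a heart alike. Those values are therefore not shares of a whole, and a share within a heart does not depend on this scaling. Rows under 1 RPM in at least 1 heart numbered 185, beside 63 at 0. Arm counts and median CVs stayed within 1.5 times of their values. No paired analysis was possible because WT sham shares no animal number with another small RNA group. Depth limits statements on miRNAs of few reads, and 2 hearts a side limit those on column names.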
